A study of Mus musculus with 40 samples.

Results

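The mRNA levels of direct p53 target genes were followed in mouse brain tumors and tumor cells whose p53 gene had been deleted or carried a missense mutation. The genes were 36 named members with roles in DNA damage, cell death, arrest of growth and metabolism, and Cdkn1a and Mdm2 were not among them. Of these, 34 had a probe set naming a single gene among the 18193 genes measured. Bax and Gdf15 had none in the annotation used and were not analysed here. The measured members were 12 genes of cell death and survival, 8 of the cell cycle and growth, 6 of DNA repair and nucleotide supply, 5 of metabolism and stress and 3 of the cell surface and antigen handling.

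The tumors were 11 malignant gliomas of hGFAP-cre+;p53LSLR172H/floxE2-10 mice (R172H gliomas) and 11 of hGFAP-cre+;p53floxE2-10/floxE2-10 mice (null gliomas). The cultures were 11 early passage lines from gliomas of hGFAP-cre+;p53LSLR172H/floxE2-10 mice (R172H lines) and 2 lines from MRI-guided biopsies of that genotype at an early stage (early biopsy lines). The controls were 5 normal dorsal cortices, 3 from hGFAP-cre+;p53floxE2-10/+ mice and 2 from hGFAP-cre-;p53floxE5-6/floxE5-6 mice. Every genotype thus carried at least 1 engineered p53 allele. The neural cells of the Cre-positive cortices keep 1 intact allele after recombination, and the floxed alleles of the Cre-negative cortices stay functional. The hGFAP-cre transgene expresses Cre under the human GFAP promoter in neural cells, so vessels, microglia and other stromal cells of a glioma keep unrecombined alleles, of which the floxed ones are functional and the LSL one is silent. By the study's methods each R172H line came from a tumor in the R172H glioma group, but the labels do not say which line from which tumor, so lines and gliomas were compared as if independent. Nothing in the labels names a batch. Histology had noted normal tissue in a single R172H tumor, and the labels do not say which.

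The p53 protein is a transcription factor that accumulates after DNA damage and other stress. It binds response elements built of a pair of decamers and switches on genes that halt the cell cycle, repair DNA, limit oxidative stress or start apoptosis. The R172H protein, the mouse homologue of the human R175H hotspot mutant, has a misfolded DNA-binding domain and fails to activate most of these genes. Many of them also answer to other factors, so their mRNA need not vanish without p53.

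The values were log2 signals, and each gene took its brightest probe set. Array medians lay from 5.24 to 5.47, and a mean under the median of a group's arrays is called dim here, since such a signal can hardly be told from background. The p53 gene itself had no probe set naming it alone, so the genotypes could not be checked against it. Of the 16 microglia and macrophage markers, 1 was above the array median in the R172H lines and all 16 in cortex, while 8 of 8 oligodendrocyte progenitor markers were above it in both. The neuron score, the median difference of 12 neuron genes from the cortex mean, was -0.61, -0.65 and -0.07 in the gliomas of arrays 38, 45 and 58, from -7.65 to -2.15 in the other gliomas and from -0.23 to 0.15 in cortex. The gliomas of arrays 36, 41 and 50 were lowest in the score of oligodendrocyte progenitor markers, at -1.27, 0.55 and -2.22 beside 0.99 to 3.96 in the other gliomas. Array 41 lay close to the next glioma in this score. The same gliomas held the lowest or highest values of several of the targets below. In these bulk samples, fewer cells of a type and less RNA per cell cannot be told apart.

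A match to the p53 response element lay close to the RefSeq start used for Ccng1, Rps27l and Ckap2. Their promoter windows are shown because these genes did not move alike in the tumors. RefSeq promoter windows of build GRCm38.p6, which run from 250 bases before to 50 after a gene's start, were at hand for 28 of the 36 members. They were scanned for the p53 response element, as 2 decamers with no spacer, the C and G of each core fixed and at most 2 other letters off the consensus. The element reads alike on both strands. It was found for 3 of these members and for 0.392% of 27025 genes. In the sequences, written 5′ to 3′ on the strand of the gene, capitals mark the element. The window of Ccng1, the gene of cyclin G1, lies at chr11:40755237-40755536 on the minus strand, with the element from -195 to -176 relative to the gene's start. Rps27l, which encodes a ribosomal protein homologue, has its window at chr9:66946163-66946462 on the plus strand, with the element from -117 to -98. Ckap2, the gene of a microtubule-associated protein of dividing cells, has its window at chr8:22185770-22186069 on the minus strand, with the element from -203 to -184.
Ccng1: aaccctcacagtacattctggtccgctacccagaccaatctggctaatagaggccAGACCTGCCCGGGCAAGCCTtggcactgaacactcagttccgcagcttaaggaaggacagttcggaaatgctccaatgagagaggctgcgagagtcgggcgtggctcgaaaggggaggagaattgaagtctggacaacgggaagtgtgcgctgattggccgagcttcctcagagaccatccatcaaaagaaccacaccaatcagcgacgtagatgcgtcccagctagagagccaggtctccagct
Rps27l: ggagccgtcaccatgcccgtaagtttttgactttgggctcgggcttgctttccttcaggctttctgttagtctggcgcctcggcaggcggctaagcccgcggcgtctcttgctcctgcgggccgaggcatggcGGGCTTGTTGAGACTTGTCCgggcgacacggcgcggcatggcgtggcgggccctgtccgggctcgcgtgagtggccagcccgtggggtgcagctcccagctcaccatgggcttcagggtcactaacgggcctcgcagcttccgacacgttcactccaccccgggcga
Ckap2: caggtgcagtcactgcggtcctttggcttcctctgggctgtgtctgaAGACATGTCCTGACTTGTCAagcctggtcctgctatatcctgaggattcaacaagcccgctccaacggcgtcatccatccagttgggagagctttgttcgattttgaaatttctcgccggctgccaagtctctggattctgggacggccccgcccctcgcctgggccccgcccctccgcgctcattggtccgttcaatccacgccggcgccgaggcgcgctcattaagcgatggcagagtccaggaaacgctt
The elements of Ccng1 and Rps27l have 1 letter off the consensus and that of Ckap2 has 2. A match of letters is a description of the window and not a bound site.

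The first question was whether p53 targets differ in gliomas, which lack functional p53 in the tumor cells, from cortex. Both directions occurred. Of the 34 members, 13 rose and 7 fell in the gliomas at an adjusted p under 0.05 (limma, Benjamini-Hochberg over 18193 genes), and 14 did not pass. That is 38.2% higher and 20.6% lower, beside 22.6% higher and 24.7% lower of all genes. The median log2 difference was 0.20 over the members and -0.03 over all genes, and the median size of the difference was 0.67 against 0.43. Here and in the later comparisons, dim genes weigh more among all genes than among the members. Signals exceeded the array median in at least 5 arrays for 13019 of all genes and for 33 of the 34 members. Leaving out the 3 gliomas near cortex in neuron markers gave 14 higher and 7 lower, and leaving out arrays 36, 41 and 50 gave 12 and 7. With only the 3 Cre-positive cortices as controls, 7 rose and 4 fell, all of them among the 13 and the 7. The calls lost there were those of Bbc3, Casp1, Ercc5, Sesn2, Ddit4, Epha2, Ei24, Polk and Ephx1.

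**Figure D1:**
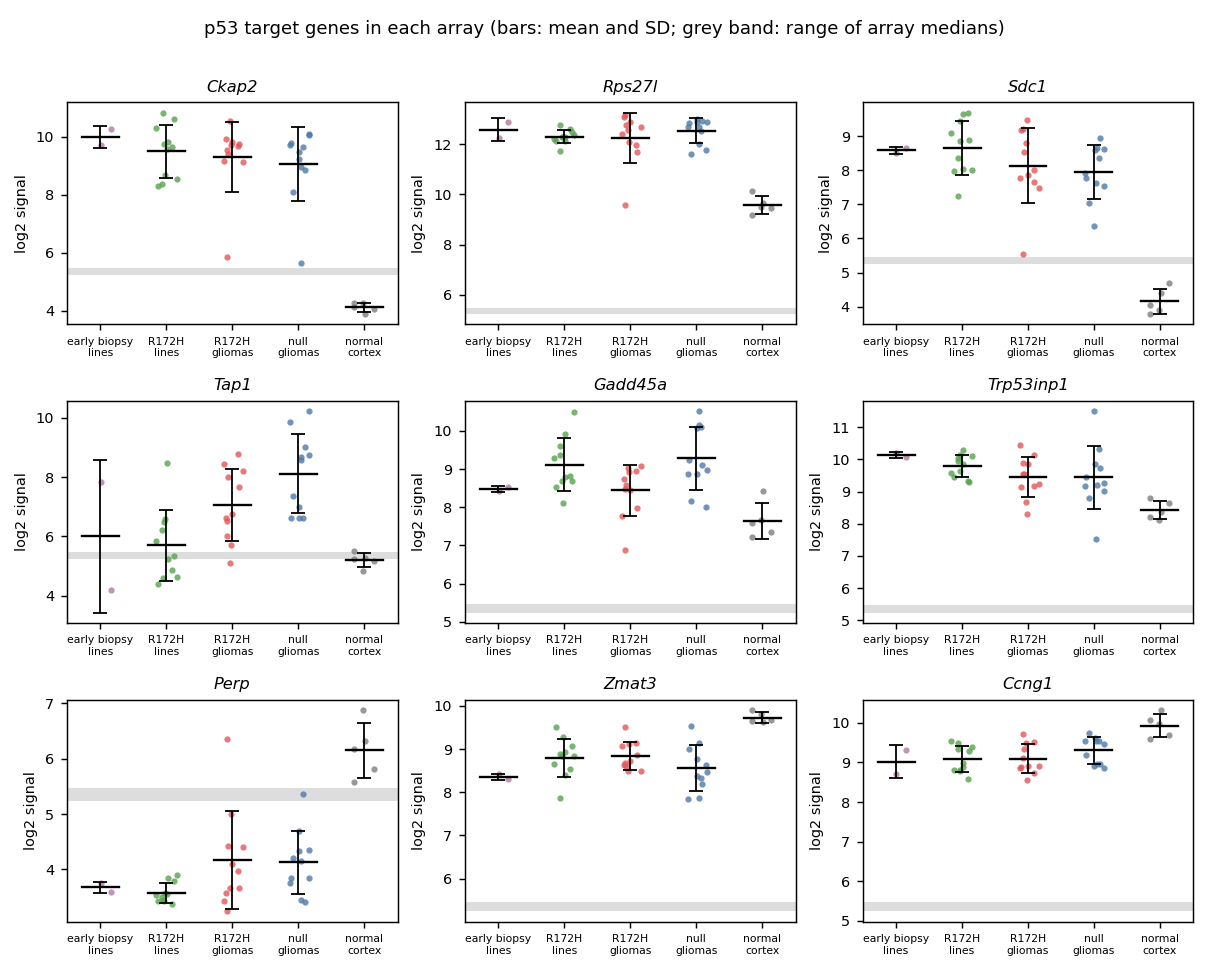
Log2 signal of 9 p53 target genes in each of the 40 arrays (points), with the mean and SD of each group (black bars) and the range of array medians (grey band). Ckap2, Sdc1 and Rps27l averaged lowest in cortex, with the R172H glioma of array 58 at 9.58 among the cortices for Rps27l, while Perp, Zmat3 and Ccng1 averaged highest in cortex.

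Among the genes of cell death and survival, 4 rose, 3 fell and 5 did not pass. Perp, an effector of apoptosis and a protein of desmosomes, had the largest fall, 2.00 in log2 units (standard error 0.29, adjusted p = 7.71e-07). Its log2 signals in the gliomas had a lowest of 3.24, a median of 4.03 and a highest of 6.36, against 5.81, 5.58, 6.32, 6.88 and 6.18 in the cortices. The glioma of array 58 held that highest value and lay among the cortices, and the other 21 gliomas were below every cortex. The glioma mean, 4.15 ± 0.73 (SD, n = 22), was dim, so the fall may be understated. Zmat3, a zinc finger protein that binds RNA, had a lowest of 7.85, a median of 8.66 and a highest of 9.53 in the gliomas, against 9.67, 9.90, 9.62, 9.81 and 9.64 in the cortices. All 22 gliomas were below all cortices, and the log2 difference was -1.02 (standard error 0.20, adjusted p = 6.05e-05). Ei24, an endoplasmic reticulum protein, fell by 0.31 (adjusted p = 0.0446), a call lost in 7 of 16 alternatives, without array 30, 31, 32 or 33 among them (adjusted p up to 0.135).

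Casp1, the caspase that matures interleukin-1 beta in inflammasomes, rose by 1.46 (standard error 0.60, adjusted p = 0.0425). Its log2 signal ran from 5.13 to 9.77 in the gliomas around a median of 7.39, and was 4.51, 5.64, 6.44, 7.27 and 5.49 in the cortices. The groups overlapped, with 12 of 22 gliomas above every cortex. The call was lost without array 30, 31 or 34 and under cyclic loess (adjusted p up to 0.167 over alternatives). Trp53inp1, a nuclear stress protein that aids p53-dependent death, rose by 1.02 (standard error 0.32, adjusted p = 0.00817). It averaged 9.44 ± 0.80 in the gliomas (SD, n = 22) and 8.43 ± 0.28 in the cortices (SD, n = 5), and 19 gliomas were above every cortex. Its second probe set was dim and hardly moved, at 5.0 and 5.21 in R172H and null gliomas and 5.17 in cortex, and the mean of both probe sets did not pass (adjusted p = 0.0774). Apaf1, the scaffold of the apoptosome, rose by 0.62 (adjusted p = 0.0167) and Bbc3, the gene of the BH3-only protein Puma, by 0.49 (adjusted p = 0.0436). The call of Bbc3 was lost in 9 of 16 alternatives, each single cortex left out among them (adjusted p up to 0.185), and that of Apaf1 in 3, without array 32 or 34 among them (adjusted p up to 0.127).

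The other genes of this group did not pass. Pmaip1, the gene of the BH3-only protein Noxa, had a log2 difference of 0.95 (95% interval -0.14 to 2.03), Phlda3, an inhibitor of Akt, of -0.28 (-1.12 to 0.55) and Aen, a nuclease of apoptosis, of 0.06 (-0.37 to 0.49). The death receptor genes Eda2r and Tnfrsf10b were dim in gliomas and in cortex. Tnfrsf10b averaged 3.68 ± 0.18 in the gliomas (SD, n = 22) and 3.69 ± 0.25 in the cortices (SD, n = 5). Eda2r was dim in most gliomas, with a median of 4.29, but reached 7.52, 6.24 and 7.51 in arrays 36, 41 and 50 and 5.73 in array 35, while the cortices did not exceed 4.43.

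Among the cell cycle and growth genes, 2 rose, 1 fell and 5 did not pass. Ckap2 showed the largest difference of all members, 5.07 in log2 units (standard error 0.51, adjusted p = 1.01e-09). Its signals had a lowest of 5.64, a median of 9.60 and a highest of 10.55 in the gliomas, against 4.07, 4.25, 3.89, 4.28 and 4.12 in the cortices. The groups did not overlap, and the cortex mean was dim, so the rise may be understated. The lowest gliomas, 5.64 in array 45 and 5.87 in array 58, were also lowest in the cell cycle score, the median difference of 15 cell cycle genes from the cortex mean, at 1.84 and 1.72 beside 4.88 to 6.86 in the other gliomas. Gadd45a, which binds Pcna and stress kinases, rose by 1.21 (standard error 0.34, adjusted p = 0.00319), with 17 of 22 gliomas above every cortex and array 58 below all of them at 6.89.

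Ccng1 fell by 0.73 (standard error 0.17, adjusted p = 0.000496), while Ckap2 and Rps27l, whose promoter windows also hold a match to the element, rose. It ran from 8.55 to 9.75 around a median of 9.15 in the gliomas, and was 9.68, 10.07, 10.32, 9.97 and 9.59 in the cortices. All gliomas but 3 were below every cortex. A second probe set of Ccng1 also fell, with means of 7.16 and 7.48 in R172H and null gliomas against 8.16 in cortex. The third had 6.93 and 7.39 against 7.38, so it did not fall in null gliomas. The call of Ccng1 was lost in 0 of 16 alternatives. The antiproliferative gene Btg2 had a log2 difference of 0.79 (adjusted p = 0.0718), its relative Tob1 of -0.21, the polo-like kinase genes Plk2 and Plk3 of -0.87 and -0.25 and the transcription factor gene Klf4 of -0.33, and none of these passed. Plk2 varied widely among the gliomas, with an SD of 1.37, and was lowest in arrays 36, 41 and 50 at 6.41, 7.30 and 7.41, followed by 7.71 in array 64.

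In the DNA repair and nucleotide group, 2 rose, 2 fell and 2 did not pass. Rps27l rose by 2.80 (standard error 0.31, adjusted p = 4.83e-09). Its lowest glioma was at 9.58, the median at 12.67 and the highest at 13.14, against 9.47, 9.18, 9.65, 9.49 and 10.15 in the cortices. The lowest was array 58, which lay among the cortices, and the other 21 gliomas were above every cortex. The 3 probe sets of Rps27l had means of 12.26, 12.21 and 12.14 in R172H gliomas and 12.53, 12.43 and 12.34 in null gliomas, against 9.59, 9.61 and 9.6 in cortex. Its close homologue Rps27 may share signal with them. Ercc5, the endonuclease of nucleotide excision repair, rose by 0.39 (adjusted p = 0.0211), and the call was lost without array 33 or 34 and under cyclic loess (adjusted p up to 0.183).

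Rrm2b, the ribonucleotide reductase subunit that supplies nucleotides for repair, fell by 0.72 (standard error 0.16, adjusted p = 0.000367), with 20 of 22 gliomas below every cortex. Polk, a translesion DNA polymerase, fell by 0.58 (adjusted p = 0.0119). The damage recognition genes Xpc and Ddb2 had log2 differences of 0.47 (adjusted p = 0.0663) and -0.21 (adjusted p = 0.609) and did not pass.

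In the metabolism and stress group, 2 rose, 1 fell and 2 did not pass. Sesn2, a leucine sensor upstream of mTORC1, rose by 1.04 (standard error 0.30, adjusted p = 0.00474), with 18 of 22 gliomas above every cortex. A second probe set of Sesn2, nearly as bright, moved less, with means of 7.44 and 7.64 in R172H and null gliomas and 7.04 in cortex. Ddit4, which also restrains mTORC1, rose by 0.97 (standard error 0.28, adjusted p = 0.00383) and had 15 gliomas above every cortex. Ephx1, the microsomal epoxide hydrolase, fell by 0.96 (standard error 0.39, adjusted p = 0.0422). Its signal ran from 5.90 to 9.19 in the gliomas around a median of 7.85, against 8.76, 8.79, 8.59, 8.51 and 8.82 in the cortices. The cortices were close together, the glioma of array 60 exceeded them, and the call was lost when any 1 cortex was left out (highest adjusted p over alternatives 0.129). Sesn1 and the xylulose reductase gene Dcxr had log2 differences of -0.50 (adjusted p = 0.179) and -0.13 (adjusted p = 0.702). Sesn1 passed as lower in 3 of 16 alternatives (adjusted p down to 0.00327). These were cyclic loess, array weights and leaving out arrays 36, 41 and 50.

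All 3 cell surface and antigen genes rose. Sdc1, the heparan sulfate proteoglycan syndecan-1, rose by 3.88 (standard error 0.41, adjusted p = 2.72e-09). Its signals had a lowest of 5.55, a median of 7.96 and a highest of 9.48 in the gliomas, against 4.69, 4.04, 4.39, 3.90 and 3.79 in the cortices. The groups did not overlap, and the cortices were dim. A second probe set of Sdc1 moved alike, with means of 8.07 and 7.89 in R172H and null gliomas and 3.39 in cortex, but the other 2 moved less, with 5.74 and 5.51 against 4.58 and with 5.55 and 5.62 against 5.13. The mean of all 4 rose by 2.49 (adjusted p = 3.8e-08). Tap1, a subunit of the peptide transporter of MHC class I, rose by 2.40 (standard error 0.60, adjusted p = 0.00114), with 21 of 22 gliomas above every cortex. Its second probe set had means of 4.17 and 4.52 in R172H and null gliomas and 4.6 in cortex, all dim, so the rise rests on the brightest. The microglia and macrophage score was 0.30 to 2.78 in the gliomas and -0.29 to 0.29 in cortex, and its part in the rise of Casp1 and Tap1, genes also active in immune cells, was not tested. Epha2, an ephrin receptor, rose by 0.35 (adjusted p = 0.022).

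**Figure D2:**
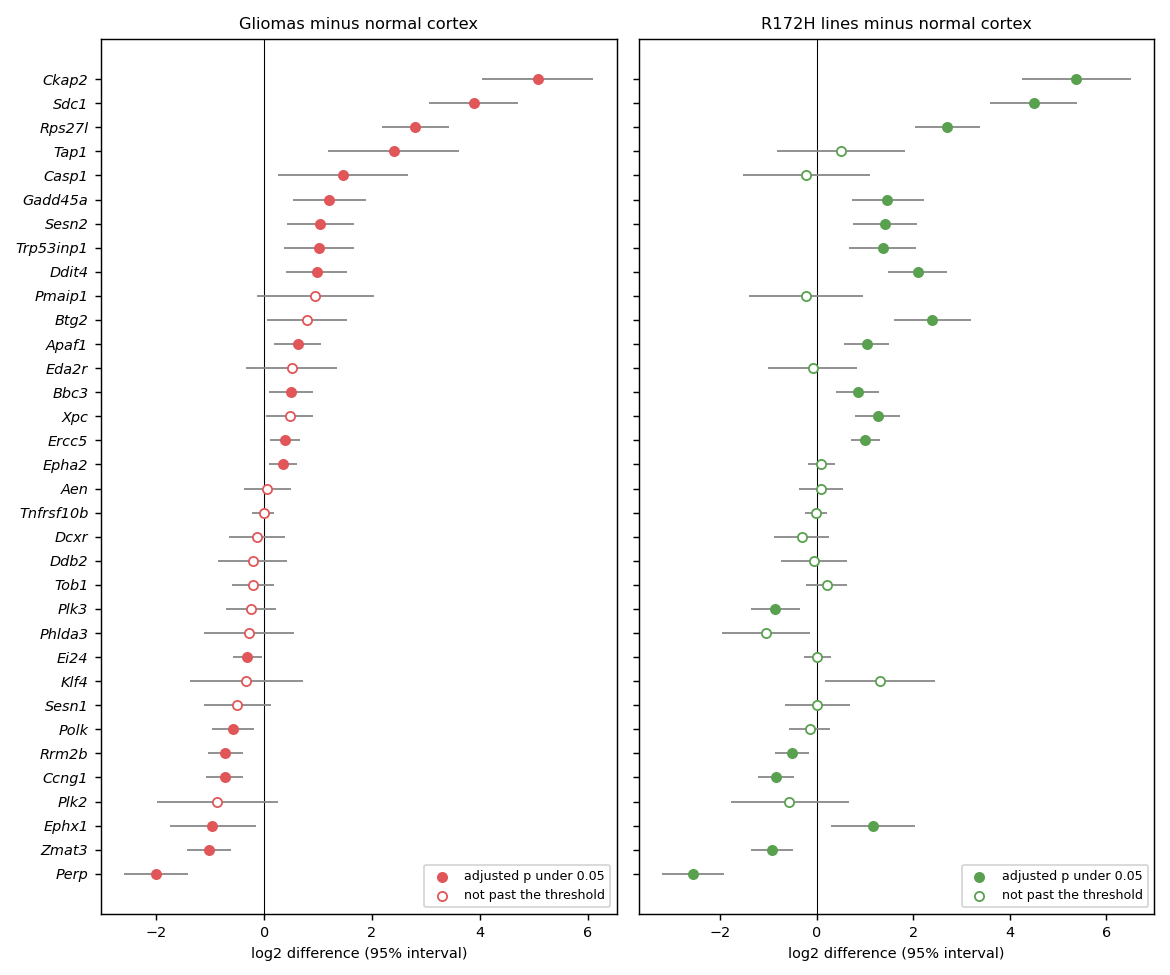
Log2 difference of each of the 34 measured members from normal cortex, for gliomas (left, mean of both genotypes, n = 22 against 5) and R172H lines (right, n = 11 against 5), with 95% intervals and filled points at an adjusted p under 0.05. Both panels use the same 5 cortices, and Ckap2, Sdc1 and Rps27l lead both while Perp is lowest in both.

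A second question was whether the missense allele gives the targets another level than a deleted allele. No member passed between R172H and null gliomas, and 5 of 34 had an unadjusted p under 0.05, beside 2024 of 18193 genes. Over all genes, 0% rose and 0.033% fell in the R172H gliomas. The member with the smallest p was Ercc5, with a log2 difference of 0.38 (95% interval 0.14 to 0.63, adjusted p = 0.182). It ran from 7.93 to 8.82 with a median of 8.52 in R172H gliomas and from 7.29 to 8.65 with a median of 8.05 in null gliomas. Gadd45a differed by -0.83 (-1.42 to -0.25, adjusted p = 0.237), with a lowest of 6.89, a median of 8.59 and a highest of 9.09 in R172H gliomas and 8.0, 9.11 and 10.51 in null gliomas. The other 3 were Polk at 0.40 (0.07 to 0.73), Epha2 at -0.28 (-0.50 to -0.05) and Plk3 at -0.45 (-0.86 to -0.05).

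The intervals show what these arrays could have missed. For Perp the difference was 0.04 (95% interval -0.47 to 0.55), for Ccng1 -0.21 (-0.50 to 0.09), for Bbc3 0.12 (-0.24 to 0.47) and for Zmat3 0.29 (-0.06 to 0.63). For Ei24 it was 0.05 (-0.18 to 0.28). The widest intervals belonged to the variable members, with Tap1 at -1.05 (-2.09 to 0.00), Casp1 at -0.32 (-1.36 to 0.72) and Plk2 at 0.38 (-0.59 to 1.35). The count of 0 held in each alternative run, those without the 3 neuron-rich gliomas or without arrays 36, 41 and 50 included.

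**Figure D3:**
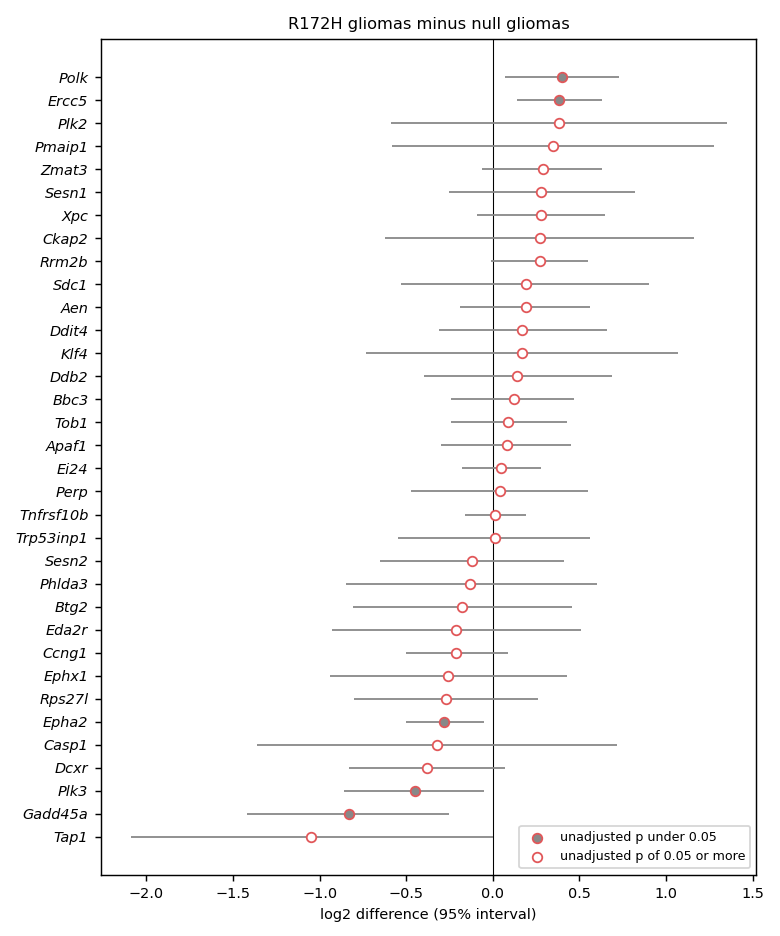
Log2 difference between R172H and null gliomas (n = 11 each) for the 34 measured members, with 95% intervals. No member passed at an adjusted p under 0.05, and the 5 grey filled points, Gadd45a, Plk3, Epha2, Ercc5 and Polk, had an unadjusted p under 0.05.

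R172H lines were then set against R172H gliomas, tumor cells in culture against whole tumors of the same genotype. Of the 34 members, 6 rose and 2 fell in the lines, which is 17.6% and 5.88%, beside 7.24% and 6.43% of all genes. The median log2 difference was 0.15 over the members and 0.05 over all genes. Ephx1 rose most, by 2.26 (standard error 0.34, adjusted p = 6.8e-06). Its lines ran from 8.16 to 10.97 with a median of 9.92, and the R172H gliomas from 5.90 to 9.19 with a median of 7.57, so that 9 of 11 lines were above every R172H glioma. Btg2 rose by 1.69 (standard error 0.31, adjusted p = 0.000224), with a lowest of 9.85, a median of 10.65 and a highest of 12.27 in the lines and 7.93, 9.08 and 10.41 in the R172H gliomas. Klf4 rose by 1.55 (standard error 0.44, adjusted p = 0.016), from a lowest of 7.45 to a highest of 10.12 in the lines around a median of 8.88, beside 4.81 to 9.23 around 7.15 in the R172H gliomas. These 3 overlapped between the groups.

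Ddit4 rose by 1.03 (adjusted p = 0.00282), Xpc by 0.65 (adjusted p = 0.0133) and Ercc5 by 0.43 (adjusted p = 0.0147), which did not pass as the mean of all its probe sets (adjusted p = 0.133). All 3 overlapped between the groups, with 6, 8 and 7 of 11 lines above every R172H glioma. The sestrin genes Sesn2 and Sesn1, which also restrain mTORC1, had log2 differences of 0.43 (adjusted p = 0.285) and 0.37 (adjusted p = 0.368).

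Casp1 fell by 1.51 (standard error 0.51, adjusted p = 0.0434). Its lines ran from 4.20 to 7.28 with a median of 5.04, and the R172H gliomas from 5.13 to 8.70 with a median of 7.63, and 6 of 11 lines were below every R172H glioma. The microglia and macrophage score was -4.23 to -3.44 in the lines and 0.30 to 2.38 in the R172H gliomas, and all 16 genes of that list fell (median -4.78), Csf1r and C1qa being dim in the lines. The call of Casp1 was lost without the gliomas rich in neuron markers (adjusted p = 0.0701). Tap1 had a log2 difference of -1.38 (adjusted p = 0.0697), and the line of array 65 stood out at 8.48 while the others lay from 4.39 to 6.58.

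Pmaip1 fell by 1.35 (standard error 0.46, adjusted p = 0.0439). The lines split, with 5.75, 5.76, 3.65, 4.29 and 4.37 in arrays 47, 49, 51, 59 and 65 and 6.93 to 7.99 in the other 6, while the R172H gliomas lay from 6.67 to 8.20 around a median of 7.52. The first 5 were below every R172H glioma, and the other 6 lay within the range of the gliomas. With an SD of 1.51, Pmaip1 varied more in the lines than 98% of all genes, and its call was lost when the model held only these 2 groups or weighted the arrays (adjusted p up to 0.061 over alternatives). The early biopsy lines were at 4.97 and 7.21.

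**Figure D4:**
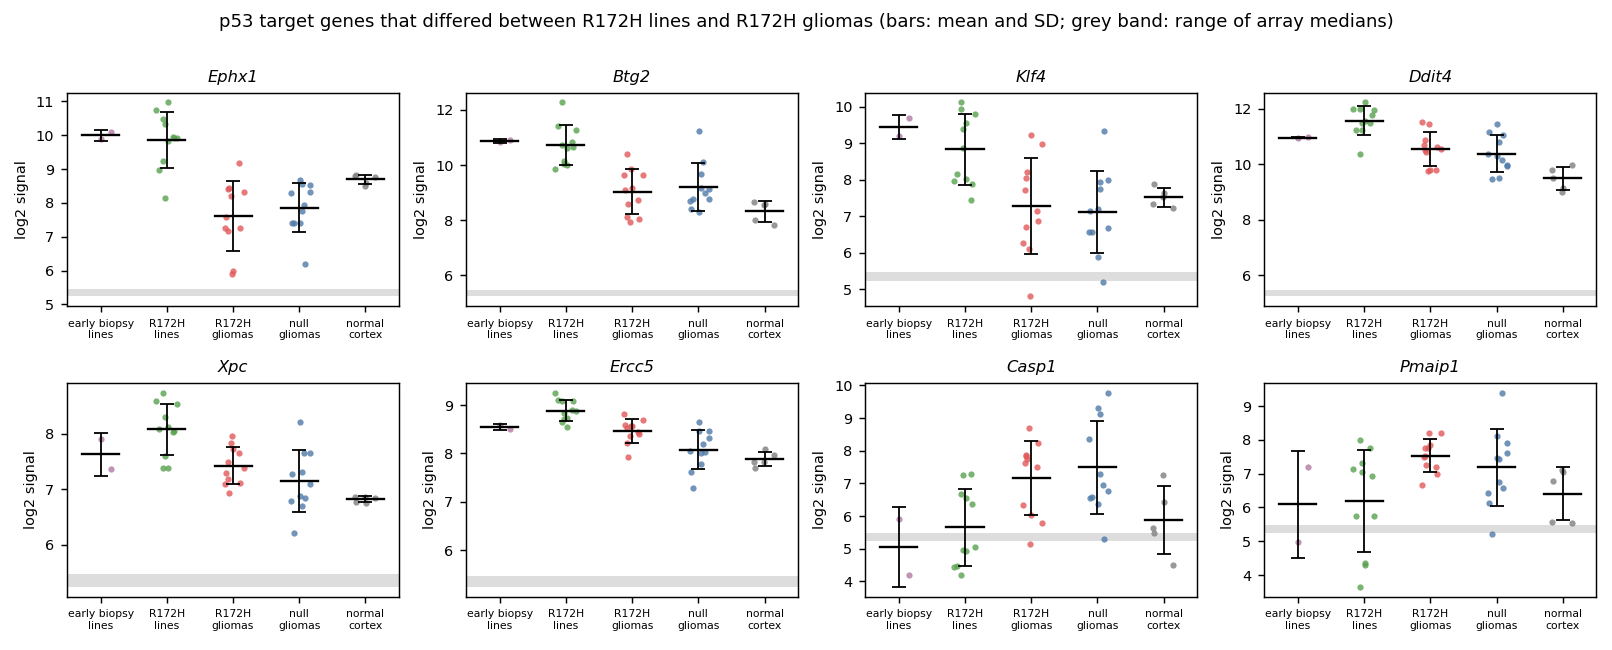
Log2 signal in each array of the 8 members that passed between R172H lines and R172H gliomas, with the mean and SD of each group (black bars) and the range of array medians (grey band). Ephx1, Btg2, Klf4, Ddit4, Xpc and Ercc5 were higher in the lines, and Casp1 and Pmaip1 lower, with 5 Pmaip1 lines from 3.65 to 5.76.

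Against normal cortex, which shares its arrays with the glioma comparison, 13 members rose and 5 fell in the R172H lines, 38.2% and 14.7% beside 25.5% and 24.3% of all genes. Of the markers of stroma, 1 of 16 microglia and macrophage and 2 of 10 endothelial genes were above the array median in the lines. Ckap2 was higher by 5.38 (standard error 0.56, adjusted p = 9.79e-10), Sdc1 by 4.50 (standard error 0.45, adjusted p = 4.44e-10) and Rps27l by 2.70 (standard error 0.33, adjusted p = 2.5e-08), without overlap. Rps27l was also even among lines, from 11.74 to 12.76. A second probe set of Sdc1 moved like the brightest, with means of 8.67 in the lines and 3.39 in cortex. The others moved less, with 6.24 against 4.58 and 5.86 against 5.13. The lowest difference of Sdc1 over the alternatives was 3.04. Btg2 at 2.39, Ddit4 at 2.09, Gadd45a at 1.46, Sesn2 at 1.41, Trp53inp1 at 1.36, Xpc at 1.26, Ephx1 at 1.17, Apaf1 at 1.03, Ercc5 at 1.0 and Bbc3 at 0.85 passed too. Of the 12 genes of cell death and survival, 3 rose, 2 fell and 7 did not pass. Those that rose, Bbc3, Apaf1 and Trp53inp1, were each above every cortex in all 11 lines. The dim second probe set of Trp53inp1 hardly moved, with means of 5.15 in the lines and 5.17 in cortex. Its call was lost in 0 of 14 alternatives.

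Perp was lower by 2.57 (standard error 0.32, adjusted p = 2.4e-08), and its lines, from 3.37 to 3.90, were dim and below every cortex. Zmat3 was lower by 0.93 (standard error 0.22, adjusted p = 0.000475), Plk3 by 0.86 (standard error 0.25, adjusted p = 0.00423), Ccng1 by 0.85 (adjusted p = 0.000196) and Rrm2b by 0.52 (adjusted p = 0.0138), the last lost as the mean of its probe sets or with only the Cre-positive cortices (adjusted p up to 0.0679). For each of these the 11 lines lay below all 5 cortices. Members without overlap numbered 16 of 34, beside 5695 of 18193 genes. Ephx1 was below cortex in gliomas and above it in lines (adjusted p = 0.0215), and the second call was lost under cyclic loess or with only the Cre-positive cortices (adjusted p up to 0.0988). Tap1 and Casp1, which rose in gliomas, differed from cortex in the lines by 0.50 (95% interval -0.83 to 1.82) and -0.22 (-1.53 to 1.10) and did not pass.

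No member passed between the 2 early biopsy lines and the R172H lines, nor did any gene, with 0% called in either direction and 515 of 18193 genes at an unadjusted p under 0.05. With 2 arrays the intervals are wide. Bbc3 alone had an unadjusted p under 0.05, at -0.86 (95% interval -1.49 to -0.22), with 6.04 and 5.80 in the early biopsy lines and 6.35 to 7.52 in the R172H lines. Polk and Eda2r also did not overlap, at -0.50 (-1.10 to 0.11) and -0.32 (-1.62 to 0.98), beside 365 of 18193 genes. The pair differed most from each other in Tap1, 7.83 and 4.18 in arrays 66 and 69, and in Pmaip1.

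The members did not vary as a block. Over the 22 gliomas the median Pearson correlation of the 561 member pairs was -0.02, beside 0.01 over all pairs of genes, with single pairs from -0.75 to 0.75. Over the 11 R172H lines it was -0.01 beside 0.01. The closest pairs in the gliomas were Bbc3 with Ddit4 (r = 0.75, rho = 0.75) and Pmaip1 with Xpc (r = 0.74, rho = 0.76), and in the lines Trp53inp1 with Klf4 (r = 0.84, rho = 0.78). These are descriptions across arrays that share genotype and tissue. The members were more variable than genes at large within a group, in cortex as well as in tumors. Their median SD was 0.62 beside 0.43 over all genes in R172H gliomas, 0.62 beside 0.41 in null gliomas, 0.48 beside 0.33 in R172H lines and 0.25 beside 0.18 in cortex. Genes at large held more dim ones, as 13019 of 18193 exceeded the array median in at least 5 arrays, beside 33 of 34 members. The spread was not compared at like signal.

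The gliomas of arrays 36, 41 and 50, 1 R172H (array 50) and 2 null, shared several values. Besides high Eda2r and low Plk2, they had the lowest Klf4 of all gliomas, at 5.21, 5.90 and 4.81 where the others ran from 6.11 to 9.33. Phlda3 was likewise lowest there, at 6.91, 6.63 and 6.30 beside 7.25 to 9.17. They did not move together in all members. Trp53inp1 was at 10.33 and 11.49 in arrays 36 and 41 but 8.29 in array 50, and Ddb2 at 6.54, 7.86 and 5.49. These arrays were singled out by their values, so no test was made.

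**Figure D5:**
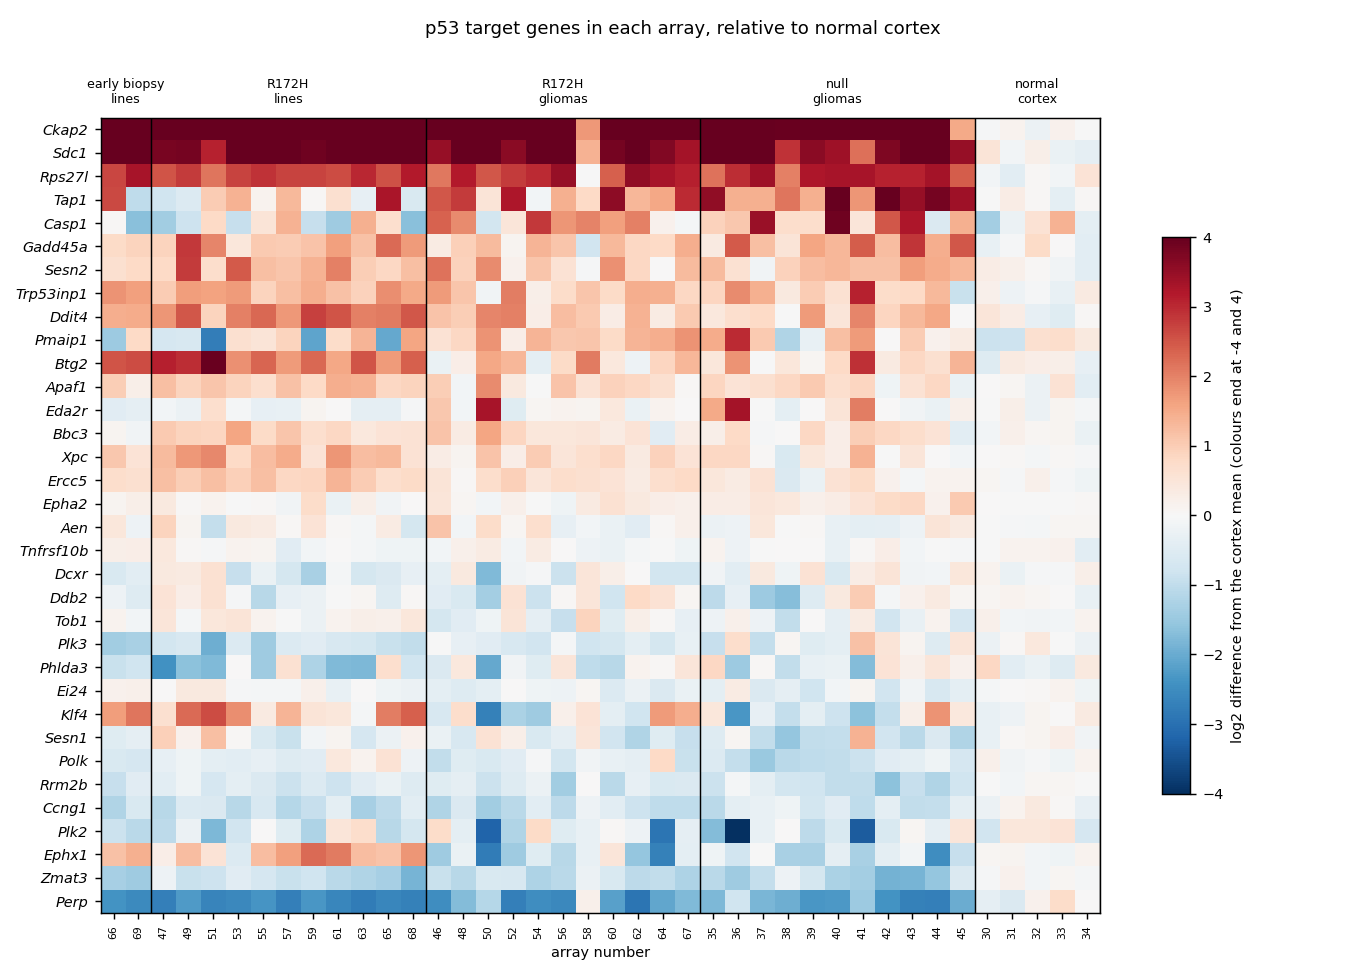
Log2 difference of each member (rows) from the mean of the 5 cortices in each of the 40 arrays (columns, by array number and grouped by sample type), red above and blue below cortex, with colours ending at -4 and 4. Ckap2, Sdc1 and Rps27l were high in nearly all tumor arrays but near cortex in array 58 for Rps27l, Perp was low, and arrays 36, 41 and 50 had high Eda2r and low Plk2, Klf4 and Phlda3.

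Members were also set against 3 marker scores over the gliomas, 102 relations in all (two-sided permutation tests with 100000 resamples, adjusted over the 102). The gliomas of arrays 45 and 58 lay apart in the cell cycle score, so it was read over the other 20. There Ckap2 had r = 0.75 (permutation p = 0.00011, adjusted p = 0.0112) and rho = 0.71 (permutation p = 0.00069, adjusted p = 0.0352), with r = 0.68 within R172H gliomas and 0.79 within null gliomas. Without arrays 50 and 38, the 2 farthest from the median score, r was 0.74. Eda2r had r = 0.70 (permutation p = 0.00027, adjusted p = 0.0138) and rho = 0.73 (permutation p = 0.00052, adjusted p = 0.0352), with r = 0.75 within each genotype and 0.58 without arrays 50 and 38. The highest Eda2r signals were those of arrays 36, 41 and 50. Array 50 also had the highest cell cycle score of the gliomas, 6.86. The relation was not tested without all 3 of these gliomas. Over all 22 gliomas the relation of Eda2r, which was dim in most of them, did not pass (permutation tests, adjusted p = 0.278 for r and 0.163 for rho), whereas that of Ckap2 passed (adjusted p = 0.00102 and 0.00714). For the neuron score, Perp had r = 0.64 (permutation p = 0.00103, adjusted p = 0.035) and rho = 0.67 (permutation p = 0.00083, adjusted p = 0.0423). Rps27l had r = -0.66 (permutation p = 0.00034, adjusted p = 0.0173) and rho = -0.52 (permutation p = 0.0149, adjusted p = 0.18). Without arrays 58 and 38, Perp had r = 0.55 (permutation p = 0.0123) and rho = 0.63 (permutation p = 0.00365), close to the values over all gliomas, but no longer passed (adjusted p = 0.251 and 0.124). Rps27l then had r = -0.46 (permutation p = 0.0425, adjusted p = 0.317) and rho = -0.35 (permutation p = 0.126, adjusted p = 0.534) and did not pass. None passed for the microglia and macrophage score, where Tap1 had r = 0.54 (permutation p = 0.00907, adjusted p = 0.109) and rho = 0.52 (permutation p = 0.0146, adjusted p = 0.18), and Casp1 r = 0.30 (permutation p = 0.168, adjusted p = 0.364) and rho = 0.25 (permutation p = 0.264, adjusted p = 0.539).

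A further list of p53 targets outside the members had 37 of 40 measured. In gliomas against cortex, the share that rose was nearer to that of the members than to all genes. In R172H lines it was nearer to all genes, whereas 17.6% of the members rose against R172H gliomas and 38.2% against cortex. In gliomas against cortex 12 rose and 7 fell, 32.4% and 18.9% beside the 22.6% and 24.7% of all genes. Igfbp3, an IGF binding protein, rose by 3.75 (standard error 0.60, adjusted p = 3.36e-06), the stress transcription factor Atf3 by 2.40 and the receptor Notch1 by 1.64. Ndrg1, a stress-induced gene, had a log2 difference of -2.44 (standard error 0.56, adjusted p = 0.000406), the zinc finger gene Zfp365 of -2.22 and the adenylate kinase Ak1 of -2.03. Between R172H and null gliomas none of the 37 passed, and 1, Pml, the organiser of nuclear bodies, had an unadjusted p under 0.05 at -0.80 (adjusted p = 0.231). In R172H lines against R172H gliomas 3 rose (Lpin1 by 1.13, Pank1 by 0.68 and Aldh4a1 by 0.54) and 2 fell (Dram1 by 1.13 and Def6 by 0.53), 8.11% and 5.41% beside 7.24% and 6.43% of all genes. Dram1 was dim in the lines and Def6 in both groups, so the sizes of their falls are uncertain. In R172H lines against cortex 10 rose, led by Igfbp3 at 4.74, Notch1 at 2.29 and Psrc1 at 2.16, and 7 fell, led by Zfp365 at -3.87, Ak1 at -3.03 and Ndrg1 at -1.69. These are 27% and 18.9% of the list beside 25.5% and 24.3% of all genes.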

How the data were processed

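RNA of 40 samples was hybridised to Affymetrix Mouse430_2 arrays. The deposited log2 values came from robust multi-array average, with its background correction and quantile step, run by the authors over all arrays together. The base was not stated and was taken as log2 from their range of 2.00 to 14.47. Of 45101 probe sets, 34945 named 1 gene in the platform annotation, and symbols were updated through the RefSeq table of GRCm38.p6. Each of 18193 genes took its brightest probe set. A model of 5 groups was fitted in limma 3.58.1 (R 4.3.3; lmFit, contrasts.fit, eBayes), with a threshold of 0.05 on the Benjamini-Hochberg adjusted p. The R172H lines derive from the tumors of the R172H glioma group, but the labels tie no array to an animal, so the fit took all arrays as independent. The p-values reflect spread among these samples only, and their number limits the precision. The members and lists were chosen with earlier results of these data known. Every measured member is named, and full statistics go to the 3 largest changes per direction. The p53 gene, Bax and Gdf15 were not analysed here. Correlations, the promoter scan and plots used Python 3.11.15. The alternatives took all probe sets of a gene together, left out _x_at and _s_at probe sets, dim genes, other groups, 1 cortex or 1 early biopsy line at a time, Cre-negative cortices or gliomas rich in neuron markers, used cyclic loess, array weights or trend and robust moderation, or set the threshold at 0.1. Leaving out arrays 36, 41 and 50, and reading the cell cycle score over 20 gliomas, were chosen after seeing the data.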

Additional observations from a re-analysis of the deposited data

Results flagged for a closer look

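In the 5 cortices, 1 of 34 members had an array far from the others. Tnfrsf10b, a death receptor gene that was dim in all groups, had a log2 signal of 3.26 in array 34 and 3.69 to 3.86 in the other cortices, a gap of 0.72 of the range. Chance alone would mark about 1 in 20 members.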

How the results depend on the processing

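Counts of members that rose or fell stayed within 1.5 times their main value except in 3 settings. With only the Cre-positive cortices, gliomas against cortex gave 7 higher and 4 lower in place of 13 and 7. When the model held only the 2 groups, and without the gliomas rich in neuron markers, R172H lines against R172H gliomas gave 1 lower in place of 2. Leaving out each cortex in turn gave 9 to 11 higher and 5 to 6 lower in gliomas against cortex, and 13 higher and 5 to 6 lower in R172H lines against cortex. R172H against null gliomas and early biopsy lines against R172H lines gave 0 in both directions under every alternative run. Ei24 in R172H lines against cortex turned from 0.01, not called, to -0.38 under cyclic loess (adjusted p = 0.031), and the cause was not tested. Of 543 single-gene values for gliomas against cortex, 40 lost and 11 gained the call, beside 4 and 10 of 339 for R172H lines against R172H gliomas. No paired analysis was made because the labels do not say which R172H line came from which tumor, although each came from a tumor of that group. R172H gliomas and R172H lines mostly alternate in array number, but no label says that neighbours form a pair. Dim signals limit Perp, Eda2r and Tnfrsf10b in tumors and Ckap2, Sdc1 and Tap1 in cortex.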
